A study of Saccharomyces cerevisiae with 227 samples.

Results

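CIT3 (YPR001W), PDH1 (YPR002W) and ICL2 (YPR006C) are the 3 yeast genes followed here, out of 5609 open reading frames measured. They were chosen by the transcript level of CIT3, which had the largest increase of all genes under antimycin A in air. The other two act with CIT3 in the methylcitrate cycle. All 3 were measured on all 227 arrays of the 7 time series, apart from 1 missing ICL2 value.

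The RNA came from *Saccharomyces cerevisiae* JM43, a laboratory wild type with mutant alleles of LEU2, HIS4, TRP1 and URA3, and from an msn2/4 mutant whose background the labels do not give. MSN2 and MSN4 encode zinc finger activators of general stress genes. Cells grew in sparged batch fermentors on galactose medium (SSG-TEA), where yeast respires, or on glucose medium (SSD-TEA), where respiration is repressed; both media were supplemented with Tween and ergosterol. Samples were collected by generations of growth after 4 kinds of change.

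In the first, aerobic wild-type cells lost their oxygen when N2 replaced the air, in galactose (42 arrays) or in glucose (41 arrays), and were followed from 0 to 6 generations. The msn2/4 mutant was shifted in galactose only, and followed to 2 generations at 5 time points (15 arrays). In the second, wild-type cells that had been 6 generations without oxygen were returned to air and followed to 7.6 generations in either medium (33 arrays each). In the third, 1 μM antimycin A, an inhibitor of the cytochrome bc1 complex of the respiratory chain, was added to aerobic wild-type cells in galactose, and samples were taken from 0 to 3 generations (33 arrays). In the fourth, these antimycin A-treated cells were shifted to O2-free N2 and followed from 0.04 to 3 generations (30 arrays). Each time point has 3 arrays, except 0.38 generations without oxygen in glucose, which has 2. Values are log2 ratios of the sample over a reference RNA. The array descriptions give each series a reference pool of its own, whereas the names of the second channel are the same for galactose and glucose, so levels are compared within a series only, or between both antimycin A series, whose reference has 1 name.

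The methylcitrate cycle disposes of propionyl-CoA, which arises from threonine and methionine by way of 2-oxobutyrate and from odd-chain fatty acids. A mitochondrial citrate synthase joins propionyl-CoA to oxaloacetate, a dehydratase and an aconitase turn the product into 2-methylisocitrate, and a lyase splits this into succinate and pyruvate. In yeast CIT3 encodes a mitochondrial citrate and methylcitrate synthase, PDH1 a putative 2-methylcitrate dehydratase, and ICL2 the mitochondrial 2-methylisocitrate lyase. Each of the outer steps has a paralog in central metabolism: CIT1 encodes the citrate synthase of the tricarboxylic acid cycle, CIT2 the peroxisomal citrate synthase, and ICL1 the isocitrate lyase of the glyoxylate cycle.

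The 3 genes lie near each other on chromosome XVI. In the RefSeq annotation of assembly R64, PDH1 is the next gene after CIT3 on the same strand, while ICL2 is on the other strand, with 5 annotated genes between CIT3 and ICL2: PDH1, a tRNA gene, YPR003C, AIM45 and HAL1. The arrays' oligonucleotide sequences were not used here.

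A few checks on the arrays come before the genes. Replicate arrays correlated with a median r of 0.81 to 0.949 per series over all genes, and the lowest replicate pair had an r of 0.457 in the antimycin A series in air. MSN2 ranged from −5.68 to −3.86 on the mutant arrays and from −0.50 to 0.53 on the wild-type arrays, and MSN4 from −3.32 to −1.30 against −0.61 to 0.33. HEM13, which encodes coproporphyrinogen oxidase, and the cell wall mannoprotein gene DAN1, both known as anaerobic genes, rose in all 3 shifts to N2 without the drug: at 2 generations HEM13 was higher by 3.75 in galactose, 4.87 in glucose and 3.51 in the mutant on the log2 scale. ANB1, also known as an anaerobic gene, fell at 0.25 generations in galactose (−1.58) and in glucose (−2.04) and was called higher in the latter from 3 generations on (1.49 at 4 generations). Arrays of one series correlated down to −0.53 between time points, with the dyes assigned the same way throughout.

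CIT3 in antimycin A-treated cells is the value by which these genes were chosen, so it is described without a test. On the 3 arrays at 0 generations CIT3 stood at 0.63, 0.63 and 0.30. At 0.25 generations it stood at 6.05, 5.55 and 5.54, a mean difference of 5.20 ± 0.16 (SE) on the log2 scale, or 36.6-fold. The groups were far apart, and every array from 0.04 generations on lay above the highest control array.

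The difference for CIT3 was already 1.08 at 0.04 generations, 1.74 at 0.08, 2.93 at 0.13 and 4.81 at 0.19. After its peak it declined to 2.51 at 0.5 generations and to 1.15 at 1 generation. At 3 generations CIT3 still stood 0.88 above the start, 1.84-fold. By the largest mean difference at any time point CIT3 was first of 5584 genes with values, ahead of POX1 (4.90), the peroxisomal acyl-CoA oxidase, and SPG4 (4.86). RGI1 (4.47) and RGI2 (4.35), 2 related genes of respiratory growth, completed the 5 highest genes, and CIT2 (4.34) was the sixth. Quantile normalization lowered the CIT3 peak to 3.44 and placed it eighth.

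PDH1 began at a higher level relative to the reference, 1.89, 1.77 and 1.55. Its early course differed from that of CIT3: at 0.08 generations the arrays read 1.06, 0.67 and 0.66, a difference of −0.94 with no overlap with the start. By 0.25 generations PDH1 had reached 5.09, 4.93 and 4.86, a difference of 3.22 ± 0.15 (SE), 9.34-fold, which placed it 26th. It was back near its start at 0.5 generations (0.17), lay below it at 1 generation (−0.95), and overlapped with it at 3 generations. PDH1 therefore crossed its starting level repeatedly, while CIT3 stayed above its own throughout.

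ICL2, the lyase gene, had the smallest range. It stood at 0.62, 0.42 and 0.30 at 0 generations and at 2.45, 2.43 and 2.20 at 0.25 generations, a difference of 1.92 ± 0.12 (SE), 3.78-fold, 150th of the 5584 genes. From 0.5 generations on its arrays overlapped those of the start. All 3 genes peaked at 0.25 generations, and the peaks decreased in the order CIT3, PDH1, ICL2. Of all genes with a test in this contrast, 23.6% were called in either direction at one or more time points, and 11.4% were called higher. A gene was called when limma's p-value, adjusted by Holm over all genes of a time point, was at or below 0.01.

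**Figure D1:**
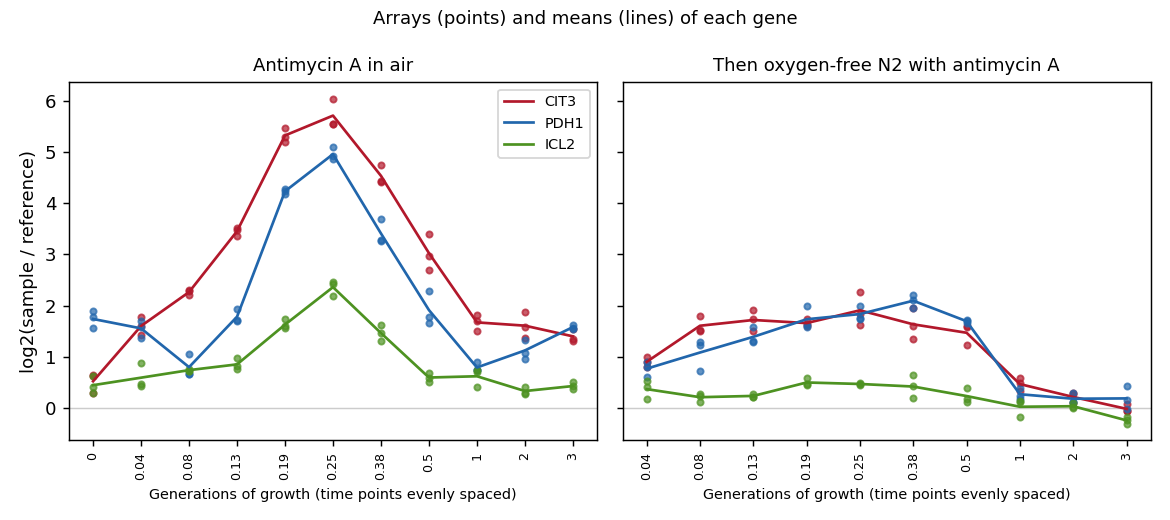
log2 ratio of sample over reference (vertical axis) of CIT3, PDH1 and ICL2 at each time point (horizontal axis, generations, evenly spaced) under antimycin A in air (left) and in the following anaerobic phase (right), with arrays as points and their means as lines. The 3 genes peak together at 0.25 generations in air, at means of 5.72, 4.96 and 2.36, and none of the means exceeds 2.10 in the anaerobic phase.

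The shift of antimycin A-treated cells to O2-free N2 asks what the loss of oxygen adds once the respiratory chain is blocked. Taken against the 3 arrays at the end of the aerobic phase, which share the contrast used to choose the genes and are given without a test, CIT3 at 0.04 generations lay lower by 0.50 and PDH1 by 0.81. Each stood above these arrays at 0.25 generations (0.51 for CIT3 and 0.25 for PDH1) and below them at 3 generations (−1.42 for CIT3, −1.39 for PDH1 and −0.67 for ICL2). The early anaerobic increase was tested within the anaerobic arrays, against 0.04 generations.

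PDH1 was called higher at 4 of 9 time points in that test, CIT3 at 1, and ICL2 at none. By gene, 2 of the 3 were called at any time, 2 higher and 1 lower. Of all genes 23% were called in either direction at any time, 11.2% higher and 12% lower. All 9 changes of CIT3 and of PDH1, upward or downward, had an unadjusted p under 0.05. From 0.08 to 0.5 generations the CIT3 means lay between 1.47 and 1.91, against 0.90 at 0.04 generations. PDH1 read 0.79, 0.90 and 0.61 at 0.04 generations and 2.11, 2.21 and 1.96 at 0.38 generations, an increase of 1.33 ± 0.14 (SE; limma, adjusted p = 2.11e-06), 2.51-fold. The other calls were at 0.19 generations (0.97, adjusted p = 0.000983), 0.25 generations (1.07, adjusted p = 0.00016) and 0.5 generations (0.93, adjusted p = 0.00196). No array of these groups overlapped those at 0.04 generations. The PDH1 mean was 2.10 at 0.38 generations and 1.58 at the end of the aerobic phase, a smaller distance that was not tested.

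CIT3 rose from 0.80, 1.00 and 0.90 to 1.63, 1.83 and 2.26 at 0.25 generations, by 1.01 ± 0.15 (SE; limma, adjusted p = 0.00224). At 3 generations it had fallen to −0.07, 0.08 and −0.07, a change of −0.92 (adjusted p = 0.00883). ICL2 lay within −0.16 to 0.13 of its start up to 0.5 generations and was 0.61 lower at 3 generations, which missed the threshold (adjusted p = 0.0228). For ICL2, 3 of its 9 changes had an unadjusted p under 0.05. Only the PDH1 call at 0.38 generations held when any 1 of the 4 replicate numbers was left out (1, 1, 2 and 1 of the 6 calls then remained).

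The shift of untreated cells to O2-free N2 in galactose gave a small early CIT3 increase followed by a lasting decrease. CIT3 read 0.21, 0.28 and 0.36 in air and 1.33, 1.14 and 1.05 at 0.13 generations, an increase of 0.89 ± 0.09 (SE; limma, adjusted p = 4.01e-08), 1.85-fold. It had also risen at 0.08 generations (0.71, adjusted p = 8.79e-06), a call that was lost without replicate 2 (adjusted p = 0.0837). At 0.25 generations CIT3 lay 0.28 below its start, which was not called (limma, adjusted p = 1).

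From 0.38 generations to the end CIT3 was lower at all 8 time points called. It read −0.79, −0.99 and −0.93 at 0.5 generations, a change of −1.19 ± 0.09 (SE; limma, adjusted p = 2.03e-11), or 2.27-fold lower. At 6 generations the decrease was 1.86-fold (−0.90, adjusted p = 3.27e-08). No CIT3 array at any of the 13 time points overlapped those in air. At one or more time points 43.3% of all genes were called in this series, 21.6% higher and 25.8% lower, so that a call by itself did not set CIT3 apart.

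PDH1 was not called at any of the 13 time points, with changes from −0.23 to 0.08 and no unadjusted p under 0.05. At 0.25 generations, where antimycin A had its peak, the PDH1 arrays read 0.11, −0.01 and −0.07 against 0.02, 0.06 and 0.17 in air, and the groups overlapped. ICL2 drifted lower, reached −0.49 ± 0.08 (SE) at 4 generations (limma, adjusted p = 0.00363), its 1 call, and stood at −0.45 at 6 generations (adjusted p = 0.0143). The ICL2 call was lost when any one replicate was left out (adjusted p 0.304 to 1).

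Side by side and without a test, the peak mean changes in galactose were 5.20 under antimycin A and 0.89 under N2 for CIT3, 3.22 and 0.08 for PDH1, and 1.92 and 0.00 for ICL2. The first values come from the contrast by which the genes were chosen, and the series have different references and controls.

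In glucose, no early increase of CIT3 was called. CIT3 read 0.48, 0.53 and 0.64 in air and 0.28, 0.51 and 0.29 at 0.13 generations, where the groups overlapped. It then fell at all 8 time points from 0.38 to 6 generations, reaching −0.81, −0.48 and −1.05 at 6 generations, a change of −1.33 ± 0.12 (SE; limma, adjusted p = 1.18e-08), 2.51-fold lower. The background in this series was 27.3% of genes called in either direction and 15.3% called lower.

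PDH1 and ICL2 fell late in glucose. PDH1 was called lower at 4, 5 and 6 generations and read −0.76, −0.71 and −0.81 at the last of these against 0.14, −0.03 and 0.14 in air (−0.84 ± 0.10 SE; limma, adjusted p = 8.69e-06). ICL2 was called lower from 3 to 6 generations (on 2 arrays at 5 generations) and read −0.72, −0.56 and −0.79 at 6 generations against 0.06, 0.19 and 0.34 in air (−0.89 ± 0.10 SE; adjusted p = 7.33e-06). Groups were well separated in both genes. Without replicate 3 neither gene was called at 6 generations (limma, adjusted p = 0.162 for PDH1 and 0.378 for ICL2). Of the 15 calls of the 3 genes 5 were then left and 8 missed the threshold. Without replicate 2, 7 were left and 6 missed it. In both cases CIT3 at 0.38 and ICL2 at 5 generations, on 2 arrays each, could no longer be tested.

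The difference between media was tested as the change in galactose minus the change in glucose. Time points were matched by generations. The paper reports slower growth without oxygen in galactose but not in glucose, so clock times can differ between the media. CIT3 differed at 0.13 generations by 1.08 ± 0.15 (SE; limma, adjusted p = 2.95e-06), and PDH1 at 6 generations by 0.93 ± 0.16 (adjusted p = 0.00101); no time point was called for ICL2. These 2 calls fell on 2 of the 3 genes, in a comparison where 33.3% of all genes were called at any time. Without replicate 1 both missed the threshold (adjusted p = 0.0102 and 0.0371), and PDH1 did so too without replicate 2 (0.312) or 3 (0.335). From 0.38 to 3 generations the CIT3 changes in both media differed by −0.14 to 0.07, with 95% intervals between −0.45 and 0.37. At 4, 5 and 6 generations the CIT3 means were −0.65, −0.48 and −0.61 in galactose (0.28 in air). In glucose they were −0.67, −0.67 and −0.78 (0.55 in air). These later differences were not called, and 5 of the 13 CIT3 differences had an unadjusted p under 0.05.

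**Figure D2:**
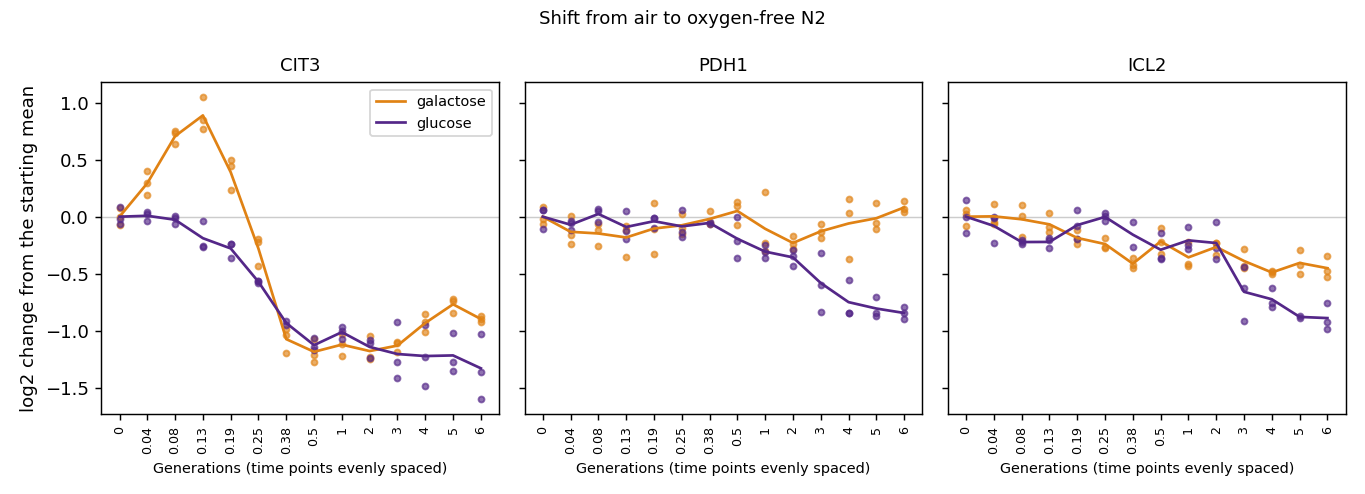
log2 change from the mean in air (vertical axis) after the shift to O2-free N2 (horizontal axis, generations, evenly spaced) for CIT3, PDH1 and ICL2 in galactose and in glucose, with arrays as points and means as lines. At 0.13 generations CIT3 is at 0.89 in galactose and −0.19 in glucose, at 3 generations it is at −1.13 and −1.20, and PDH1 at 6 generations is at 0.08 and −0.84.

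The msn2/4 mutant asks whether the response depends on the stress activators. In the mutant CIT3 read −1.10, −1.17 and −0.74 in air and 2.71, 1.55 and 2.31 at 0.19 generations, 3.20 ± 0.45 (SE) higher, with no overlap. The change missed the threshold (limma, adjusted p = 0.0266), as did 2.53 at 0.08 generations (adjusted p = 0.296). Replicates scattered more than in the wild type: the pooled SD of CIT3 was 0.637 against 0.098, and replicate 2 was the lowest array at 0.04, 0.08 and 0.19 generations. At 2 generations the arrays read −2.17, −0.67 and −0.37, around the level in air.

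The difference of wild type minus mutant was −2.81 ± 0.37 (SE) for CIT3 at 0.19 generations (limma, adjusted p = 1.37e-05), a 6.99-fold larger change in the mutant. It was called without replicate 1 or 2 and not without replicate 3 (adjusted p = 0.133). The fit pools the spread of both strains, and that of the wild type was smaller in all 3 genes. The pooled SD was 0.599 in the mutant and 0.148 in the wild type for PDH1, and 0.295 and 0.089 for ICL2. The SE of each called strain difference is therefore below that of the mutant change alone, and does not measure the mutant's scatter. In this comparison 8.87% of genes were called at any time.

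PDH1 and ICL2 differed between the strains at 2 generations. PDH1 in the mutant read 1.37, 0.69 and 1.17 in air and −2.18, −1.42 and −0.63 at 2 generations, a change of −2.49 ± 0.42 (SE) that was not called (limma, adjusted p = 0.201). The wild type minus mutant difference was 2.26 ± 0.37 (adjusted p = 0.00134), which missed the threshold when any one replicate was left out (adjusted p 0.0127 to 1). ICL2 read 1.05, 0.48 and 1.14 in air and −0.92, −1.09 and −0.86 at 2 generations, with no overlap.

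The ICL2 decrease in the mutant, −1.85 ± 0.22 (SE), was called (limma, adjusted p = 0.00498), in a series with 6.58% of genes called at any time and 3.32% lower; it was not called when any one replicate was left out (adjusted p 0.0789 to 1). The strain difference for ICL2 was 1.58 ± 0.20 (adjusted p = 2.2e-06), and was lost without replicate 1 (adjusted p = 0.0749). CIT3 differed between the strains in its early increase, and PDH1 and ICL2 in their late decrease.

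**Figure D3:**
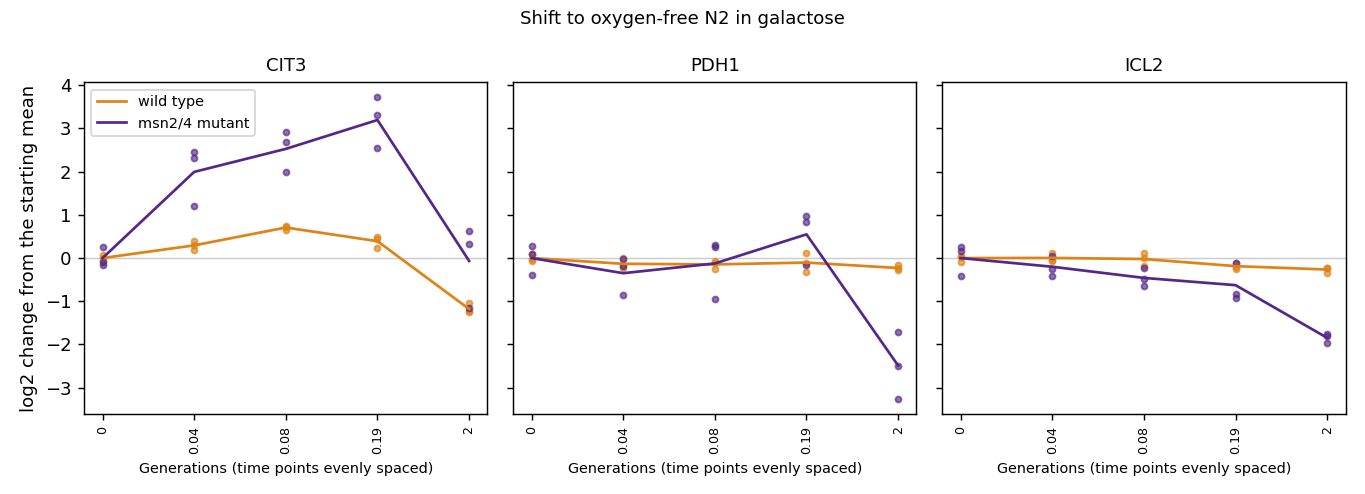
log2 change from the mean in air (vertical axis) at the time points shared by wild type and msn2/4 mutant after the shift to O2-free N2 in galactose (horizontal axis, generations, evenly spaced), with arrays as points and means as lines. CIT3 in the mutant lies above the wild type at 0.19 generations (3.20 against 0.39), and PDH1 and ICL2 lie below it at 2 generations (−2.49 against −0.23 and −1.85 against −0.27).

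Re-aeration in galactose raised all 3 genes, each with its own timing. PDH1 was the earliest: it read −0.60, −0.32 and −0.13 at the end of the anaerobic phase and 0.35, 0.58 and 1.06 at 6.06 generations, an increase of 1.01 ± 0.15 (SE; limma, adjusted p = 0.00305). It was back at its start by 6.2 generations (0.09). ICL2 came next, from −0.40, −0.61 and −0.36 to 0.44, 0.24 and 0.53 at 6.13 generations (0.86 ± 0.10 SE; adjusted p = 4.61e-05), with calls at 6.1 and 6.2 generations as well.

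CIT3 read −0.43, −0.47 and −0.37 at the start, and 0.69, 0.71 and 0.65 at 7.6 generations, an increase of 1.11 ± 0.10 (SE; limma, adjusted p = 5.33e-08), 2.16-fold; it was called at 6.2 (0.71), 6.6, 6.8 and 7.6 generations, but not at 6.3 (0.42, adjusted p = 0.733) or 6.4 generations (0.54, adjusted p = 0.0337). The 8 calls fell on all 3 genes, in a series where 27.4% of all genes were called at any time and 16.1% called higher. Without replicate 1, 2 or 3 the calls left numbered 2, 3 and 4; those of CIT3 at 6.8 and 7.6 generations held each time, while PDH1 at 6.06 generations missed the threshold each time (adjusted p 0.033 to 1).

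In glucose no re-aeration call was made for any of the 3 genes, against 21.1% of all genes called at any time. CIT3 read 0.43, 0.15 and 0.33 at 7.6 generations against −0.09, −0.03 and −0.14 at the start, 0.39 higher (95% interval 0.13 to 0.64). PDH1 read −0.71, −0.82 and −0.54 at 6.1 generations against 0.20, −0.27 and −0.25, 0.58 lower (−0.87 to −0.29). ICL2 was highest at 6.8 generations, by 0.42. Each of these missed the threshold (limma, adjusted p = 1). PDH1 later had a mean of 0.29 at 6.4 generations against −0.11 at the start, which was not called either. Of the 30 changes 11 had an unadjusted p under 0.05, and 2 were called with a Benjamini-Hochberg adjustment in place of Holm. The share of all genes called with that adjustment is not given.

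Galactose minus glucose, PDH1 differed at 6.06 generations by 1.47 ± 0.22 (SE; limma, adjusted p = 5.98e-05) and at 6.1 generations by 1.31 (adjusted p = 0.000861). ICL2 differed at 6.1 generations by 0.84 (adjusted p = 0.0072) and at 6.13 by 0.87 ± 0.15 (adjusted p = 0.00372). The CIT3 difference at 7.6 generations was 0.72 with a 95% interval of 0.41 to 1.04 and missed the threshold (adjusted p = 0.182). The 4 calls fell on 2 of the 3 genes, in a comparison where 9.23% of all genes were called at any time. None of the 4 was left without replicate 1 or without replicate 2, and 3 were left without replicate 3.

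**Figure D4:**
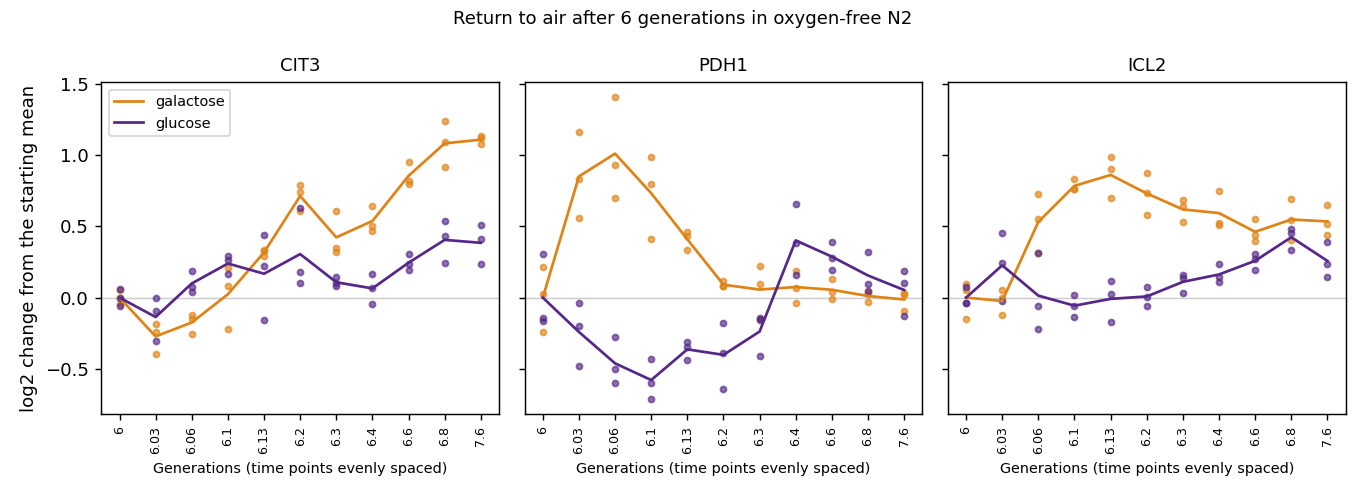
log2 change from the mean at 6 generations without oxygen (vertical axis) after the return to air (horizontal axis, generations, evenly spaced) for CIT3, PDH1 and ICL2 in galactose and in glucose, with arrays as points and means as lines. In galactose PDH1 peaks at 6.06 generations (1.01), ICL2 at 6.13 (0.86) and CIT3 is highest at 7.6 (1.11); in glucose PDH1 is lowest at 6.1 generations (−0.58).

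The other citrate synthase genes followed other courses. CIT2, a target of the retrograde pathway from mitochondria to nucleus, rose at all 13 time points without oxygen in galactose, by up to 3.22 at 0.5 generations (limma, adjusted p = 1.75e-18), where CIT3 was at its lowest. In glucose CIT2 rose at 0.13 and 0.19 generations (1.99 at the latter, adjusted p = 6.93e-05). Re-aeration lowered CIT2 at all 10 time points in galactose, by 2.03 at 7.6 generations (adjusted p = 1.77e-12), while CIT3 rose.

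Under antimycin A in air CIT2 had its peak at 0.25 generations (4.34, adjusted p = 6.77e-19), the time of the CIT3 peak, and CIT1 reached 1.34 (adjusted p = 1.35e-05). CIT1 scattered widely in the shifts to N2 (SE 0.61 in galactose and 0.48 in glucose, no call), could be tested at 1 time point of galactose re-aeration, and rose by 1.51 at 7.6 generations of glucose re-aeration (adjusted p = 7.34e-08). ICL1, the paralog of ICL2, was not called in any of these series, though wild type and mutant differed at 2 generations by 3.79 (adjusted p = 0.000109).

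**Figure D5:**
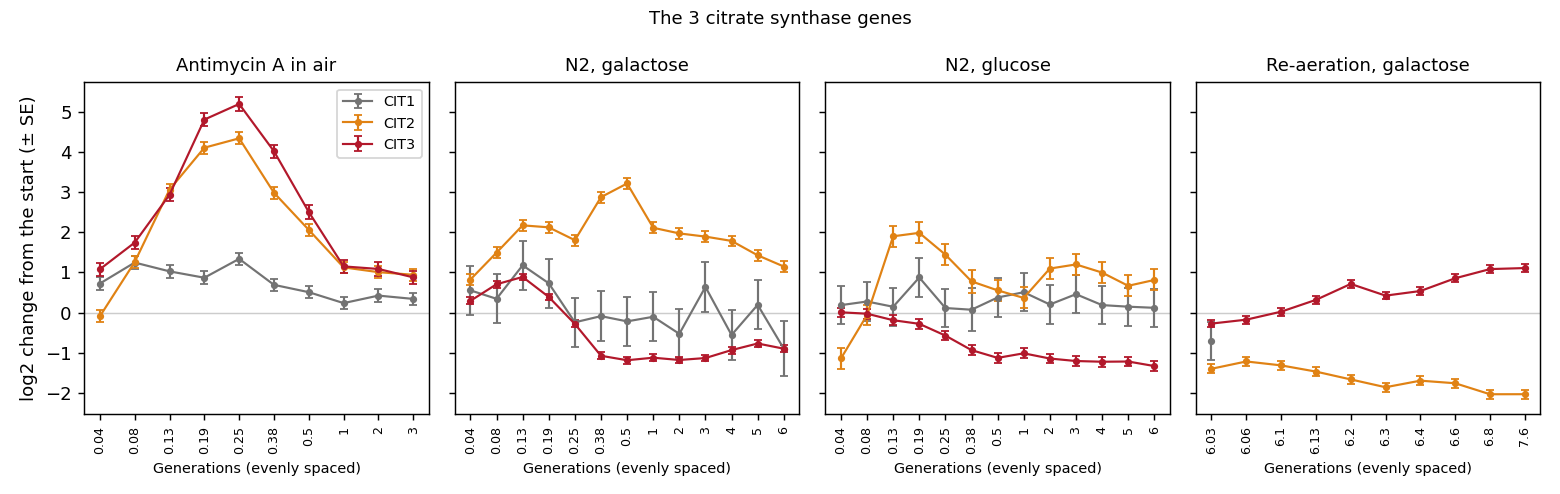
log2 change from the start of each series ± SE (vertical axis) for the 3 citrate synthase genes CIT1, CIT2 and CIT3 in 4 series (horizontal axis, generations, evenly spaced; the start is 0 generations, or 6 for re-aeration). CIT2 and CIT3 peak together under antimycin A (4.34 and 5.20) and move apart in galactose without oxygen (3.22 and −1.19 at 0.5 generations); CIT1 has 1 value in re-aeration.

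ACO1, the aconitase of the tricarboxylic acid cycle, fell at 2 generations without oxygen in galactose (−1.26; limma, adjusted p = 1.33e-07) and at 1 generation of antimycin A treatment in air (−1.82, adjusted p = 0.000243). In the anaerobic phase with antimycin A it rose against 0.04 generations, by 1.72 at 3 generations (limma, adjusted p = 1.52e-05). Against the end of the aerobic phase that rise was 1.15 and was not called. At any time point 43.3%, 23.6% and 23% of all genes were called in these series, in that order.

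Of 8 genes that make 2-oxobutyrate or could supply propionyl-CoA from it, under antimycin A in air 1 was called higher (PDA1 of the pyruvate dehydrogenase complex, 0.84, adjusted p = 0.00488) and 1 lower (CHA1, the catabolic serine and threonine deaminase, −1.51, adjusted p = 5.87e-06). Of all genes tested 23.6% were called there, and 11.4% higher. Their median largest change upward was 0.64, against 0.295 over all genes tested. In galactose without oxygen 6 of the 8 were called, 5 of them higher, led by CHA1 (3.30 at 0.25 generations, adjusted p = 1.48e-14), and 1 lower, the biosynthetic threonine deaminase ILV1 (−1.24), where 43.3% of all genes were called and 21.6% higher.

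Of 7 genes of acyl-CoA activation and the carnitine shuttle, 5 were called higher and none lower under antimycin A in air, where 11.4% of all genes were called higher. Their median largest rise was 2.11, against 0.295 over all genes tested. The highest was CAT2, the carnitine acetyltransferase of mitochondria and peroxisomes (3.68 at 0.25 generations, adjusted p = 6.28e-17), and ACS1 (acetyl-CoA synthetase, 3.03) and YAT2 (2.75) were called at the same time. In glucose without oxygen 5 of the 7 were called lower, against 15.3% of all genes, with CAT2 at −1.84 at 4 generations (adjusted p = 4.84e-12). There 1 was called higher, CRC1 (0.88 at 3 generations), where 27.3% of all genes were called in either direction. In galactose without oxygen 4 were called higher and 2 lower at some time point, against 21.6% and 25.8% of all genes.

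Of 14 genes of the tricarboxylic acid cycle, 4 were called higher and 3 lower under antimycin A in air, with 1.34 (CIT1) and −1.82 (ACO1) as the extremes, where 23.6% of all genes were called and 11.4% higher. In galactose without oxygen 10 of the 14 were called lower and 5 higher at some time point, against 25.8% and 21.6% of all genes. In glucose 8 were called lower, against 15.3%, and none higher. Of 5 glyoxylate cycle genes, 2 were called higher under antimycin A, CIT2 and MDH2 (1.07, adjusted p = 0.000658), and ACO1 lower, against the same 23.6% of all genes called and 11.4% called higher. Malate synthase MLS1 fell in galactose without oxygen (−2.86 at 4 generations, adjusted p = 3.83e-12).

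Of 11 genes beside CIT3, PDH1 and ICL2 on the chromosome, 2 were called higher under antimycin A in air, the eisosome gene LSP1 (1.72 at 0.08 generations) and HAA1, an activator of weak acid responses (1.01 at 0.19 generations), and 2 lower, SUT2 (−0.98) and the RNA polymerase I subunit gene RPA135 (−2.67). These 4 of 11 compare with 23.6% of all genes called, 11.4% higher. AIM45, which lies between PDH1 and ICL2, fell by 2.91 at 0.13 generations without oxygen in galactose (limma, adjusted p = 3.37e-16), the time point of the CIT3 peak. Neither HAT1, the next gene before CIT3, nor YPR003C, after PDH1, was called in either series.

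Over the mean changes at 70 time points of all series, which include those used to choose the genes, the profiles of PDH1 and ICL2 had an r of 0.759, CIT3 and PDH1 0.603, and CIT3 and ICL2 0.618. These are descriptions, and the points of a series share a control. Over the 50 points without antimycin A, r was 0.698 for PDH1 and ICL2, 0.22 for CIT3 and PDH1, and 0.316 for CIT3 and ICL2. Within single series the pair of PDH1 and ICL2 ranged from −0.512 in galactose without oxygen, where PDH1 had no call, to 0.947 in glucose. CIT3 and PDH1 ranged from −0.916 in galactose re-aeration to 0.996 over the 4 points of the mutant. CIT3 and ICL2 ranged from 0.229 in glucose re-aeration to 0.935 under antimycin A in air.

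The genes with profiles most like that of CIT3 over the 70 points were IDP3 (r = 0.856), POX1 (0.85), SPS19 (0.846), DIP5 (0.837) and CAT2 (0.832). For PDH1 they were ICL2, YAT2 (0.715), NRS1 (0.615), CIT3 and MSS4 (0.558), and for ICL2 they were LSC1 (0.795), PDH1, MCR1 (0.753), PLN1 (0.75) and RIM4 (0.749). IDP3, POX1 and SPS19 encode peroxisomal enzymes of fatty acid oxidation, DIP5 an amino acid permease, YAT2 a carnitine acetyltransferase and LSC1 a subunit of succinyl-CoA ligase. Without the antimycin A series ICL2 was again first for PDH1, with ICL1 among the 5 (0.568), whereas CIT3 was led by GEM1 (0.905) and ICL2 by MCR1 (0.865). In the other direction PDH1 ranked only 314th for ICL2 there, and CIT3 ranked 1206th for PDH1.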

How the data were processed

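The authors measured the arrays with GenePix, corrected the background, normalized them and deposited 1 value per open reading frame and array (5609 by 227), read here as the log2 of Cy3 sample RNA divided by Cy5 reference RNA. The labels state neither base nor direction. Of bases 2, e and 10, base 2 left the smallest misfit to the pooled references in the 4 series checked, though in glucose without oxygen it was nearly tied with e (0.059 against 0.061). The mutant and antimycin A series were not checked, and fold changes there assume the same base. The direction follows from the dyes and from MSN2 in the mutant. Array medians lie between −0.079 and 0.088, so a change common to all transcripts would be hidden, and spot brightness is unknown.

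In R 4.3.3, limma 3.58.1 was fitted to each series, with a mean for every time point and genes with 2 or more values per group. Changes from 0 generations (6 in re-aeration, 0.04 in anaerobiosis with antimycin A) were adjusted by Holm over all genes of a time point and called at or below 0.01. Series were compared by interactions, in which references cancel. Per the methods, a pair of batch fermentations sampled at alternate time points made up 1 series, and the series was run in triplicate. Which arrays share a fermentation is not marked in the labels. Replicate numbers were not used to pair arrays in the main fit. Deviations from the group means correlated more, on average, among same-numbered arrays than with other numbers in every series. The means were 0.236 and −0.143 for replicate 1 of galactose re-aeration, and 0.031 and −0.043 for replicate 2 of galactose anaerobiosis. In every series some same-numbered arrays correlated below 0.1. Whether a shared number means a shared fermentation cannot be told from these values.

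The genes and lists were chosen with earlier results of these data known. Named were the 3 genes, their paralogs, ACO1, list and neighbour genes with the largest changes, the top genes under antimycin A, and the 5 genes most like each by Pearson r. One further gene the rule named is not reported here. Symbols are from RefSeq R64 (5597 of 5609 matched). Alternatives were other adjustments, fits, scalings, gene filters, a replicate block and leaving out replicates. The test was checked on simulated data.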

Additional observations from a re-analysis of the deposited data

Results flagged for a closer look

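In 7 cases the change of a gene differed between 2 series by the test of the difference itself (limma, Holm over all genes). Of all genes, 33.3% were called at any time between media in anaerobiosis. The share was 9.23% between media in re-aeration and 8.87% between strains. In anaerobiosis, galactose minus glucose, CIT3 differed by 1.08 at 0.13 generations and PDH1 by 0.93 at 6 generations. In re-aeration, galactose minus glucose, PDH1 differed by 1.47 at 6.06 generations and ICL2 by 0.87 at 6.13 generations. In wild type minus msn2/4 mutant, CIT3 differed by −2.81 at 0.19 generations, PDH1 by 2.26 at 2 generations and ICL2 by 1.58 at 2 generations. Each of the 7 was lost without at least 1 of the 3 replicates; the largest adjusted p was 0.0102 for CIT3 between media, 0.335 for PDH1 between media in anaerobiosis, 0.0575 for PDH1 and 1 for ICL2 in re-aeration, and 0.133, 1 and 0.0749 for CIT3, PDH1 and ICL2 between strains. The tests between strains pool the smaller spread of the wild type with that of the mutant, so their p-values do not measure the mutant's scatter. Groups of 3 arrays were not examined for single outlying arrays.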

How the results depend on the processing

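The 3 genes gave 11 calls in anaerobiosis in galactose, 15 in glucose, 1 in the mutant, 8 and 0 in re-aeration in galactose and glucose, and 6 in anaerobiosis with antimycin A; between series they gave 2 (media, anaerobiosis), 4 (media, re-aeration) and 3 (strains). With a Benjamini-Hochberg adjustment the counts were 19, 18, 5, 19, 2 and 18, then 8, 9 and 5. The share of all genes called with each alternative is not given. A changed count is therefore not a result about the 3 genes. Fitting only the 2 groups compared, which leaves few arrays to estimate the spread, gave 2, 2, 0, 1, 0 and 0 calls, then 0, 0 and 1. Quantile normalization gave 1 call between media in anaerobiosis and 2 in re-aeration, and lowered the CIT3 peak under antimycin A in air from 5.20 to 3.44, eighth of all genes; the cause was not tested. Leaving out 1 replicate number at a time (the number 4, which some antimycin A arrays carry, was added after seeing the data) left 8 to 10 calls in galactose, 5 to 15 in glucose, 0 to 0 in the mutant, 2 to 4 in galactose re-aeration, 1 to 2 with antimycin A, 0 to 1 and 0 to 3 between media, and 1 to 2 between strains, with fewer arrays in each fit; the CIT3 peak ranged from 5.08 to 5.28. The arrays at that peak carry the numbers 1, 4 and 5, and number 5 was not left out. The range of the peak therefore does not cover the loss of each peak array. The other settings, including array weights by series, which were chosen after seeing the data, kept each count within 1.5 times its main value, as did limiting the shifts to 3 generations. Of the changes at preset time points, 589 comparisons with an alternative kept direction and side of the threshold, 46 lost the call, 16 gained it, and none turned direction with a call on either side. With the replicate block the counts were 11, 16, 1, 11, 0 and 8, then 2, 4 and 3. Whether the numbers pair the arrays is not known, and nothing was crossed. The small number of arrays per time point limits what changes under about 1 on the log2 scale can show. The planned promoter and protein sequences were not analysed here.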
